A study of Mus musculus with 4 samples.

Results

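The genes described here are 10 genes of the smooth muscle contractile program, Acta2, Tagln, Myh11, Cnn1, Tpm2, Myl9, Mylk, Des, Rgs5 and Notch3. They were chosen by name from the 31053 genes in the count tables, and all 10 were listed in each of the 4 tables. Single-cell transcriptomes had been captured from subcutaneous grafts of MycCaP cells, a prostate cancer line derived from HiMyc mice, and from subcutaneous adipose tissue (SAT) of FVB mice (spelled VFB in the sample labels). The tumor control and SAT control libraries came from mice that received PBS. The tumor D-CAN and SAT D-CAN libraries came from mice treated with D-CAN, a peptide that homes to adipose stromal cells and carries an amphipathic killing sequence. Each group had 1 library, and whether a library pools several mice was not stated, so no test between groups was possible. The 95% intervals of levels and ratios below cover the counting error of unique transcripts (UMIs), taken as independent. The 95% intervals of shares of cells cover the sampling of cells. None of them covers the variation between mice.

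Mural cells are the smooth muscle cells and pericytes that wrap blood vessels. Smooth muscle cells shorten when calcium and calmodulin activate a kinase that phosphorylates the regulatory light chain of myosin, and the phosphorylated myosin then pulls on actin filaments. Pericytes of small vessels contain less of this machinery, and fibroblasts of wounds and tumors can switch on a part of it as they become myofibroblasts. Acta2 encodes smooth muscle alpha actin, Myh11 the smooth muscle myosin heavy chain, Myl9 a regulatory light chain and Mylk the myosin light chain kinase. Tagln (transgelin), Cnn1 (calponin) and Tpm2 (a tropomyosin) bind actin filaments, and Des encodes the intermediate filament desmin. Rgs5, a regulator of G protein signaling, and Notch3, the Notch receptor of mural cells, are widely used as mural markers and are not part of the contractile apparatus.

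Many contractile genes are transcribed through the CArG box, the DNA element bound by serum response factor. Promoter windows from RefSeq (GRCm38.p6, 250 bases before the annotated start) were available for 8 of the 10 genes, all but Tagln and Myh11. Both strands were searched, and 1 of these 8 windows, that of Myl9, held an exact CArG box. An exact box was found in 1.47% of the 32851 windows of this length. When 1 G or C was allowed within the AT-rich core, 2 of the 8 windows held a match, those of Myl9 and Acta2, against 8.59% of all windows. These matches are shown because they lie in the promoters of a filament gene and a myosin gene that are set side by side below. Each is given 5′ to 3′ on the strand of the gene, with the box in capitals. The first Myl9 sequence is the exact box, and the other sequences have 1 G or C in the core. A match is a description of the letters and was not tested as a binding site.
Myl9, chr2:156775293-156775322, plus strand: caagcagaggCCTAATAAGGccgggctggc
Myl9, chr2:156775355-156775384, plus strand: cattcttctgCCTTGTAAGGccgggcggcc
Acta2, chr19:34255438-34255467, minus strand: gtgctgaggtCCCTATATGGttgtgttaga
Acta2, chr19:34255388-34255417, minus strand: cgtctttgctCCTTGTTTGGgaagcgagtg

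The boxes of Myl9 began 161 and 99 bases before its RefSeq start, outside the GENCODE gene, which spans chromosome 2 from 156775420 to 156781658 on the plus strand. Those of Acta2 began 84 and 34 bases before its RefSeq start. The GENCODE model of Acta2, on the minus strand of chromosome 19 from 34241090 to 34255590, starts further upstream and contains both boxes. In the same GRCm38 annotation Tagln (45929619 to 45936058, minus strand) and Cnn1 (22099216 to 22109630, plus strand) lie on chromosome 9. Myh11 (14194535 to 14291372, minus strand) and Mylk (34745210 to 35002420, plus strand) lie on chromosome 16. Des (75360329 to 75368579) and Rgs5 (169655501 to 169695813) lie on the plus strand of chromosome 1. Tpm2 (43514711 to 43523765) is on the minus strand of chromosome 4 and Notch3 (32120820 to 32166852) on the minus strand of chromosome 17.

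The tables held 1525 to 2851 cells per library with 6667064 to 17996284 UMIs, and median UMIs per cell ranged from 1700 in SAT control to 4855 in tumor D-CAN. Of 9128 cells, 8986 had at least 200 genes and were kept, and any pair of libraries shared at most 2 barcodes. Cells were clustered by tissue without the contractile genes, and clusters were named from markers that did not include any of the 10 genes. The tumor mural-like cluster (109 cells in control and 51 in D-CAN) was led by Rgs5 and Serpine2 and showed 12 mural markers. The Thbs4-high fibroblast-like cluster of the tumor (62 and 53 cells) showed 9 fibroblast and 5 mural markers, and Thbs4, an extracellular matrix glycoprotein, reached 3134 and 2110 CPM there against 36.1 and 32.7 CPM in mural-like cells. The Dcn-high fibroblast-like cluster (22 and 13 cells) showed 12 fibroblast markers. The SAT mural-like cluster (19 and 36 cells) showed 14 mural markers.

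Summed over 14 mural markers, tumor mural-like cells had 2915 and 2808 CPM in control and D-CAN, above each other tumor class (at most 676 and 1292 CPM, in endothelial-like cells) and below SAT mural-like cells (4898 and 5296 CPM). The mural and fibroblast markers and Thbs4 also named the clusters, so the order of classes by them is a description. Tumor mural-like cells also had fibroblast transcripts. Over 13 fibroblast markers their sum was 6047 and 6625 CPM, with 13 and 11 markers detected. Thbs4-high cells had 25122 and 20249 CPM, and SAT mural-like cells had 826 and 653 CPM. The part of these transcripts in the levels below was not tested. Basal and myoepithelial markers, which would mark another contractile cell type, were at 0 UMIs for 5 of 5 genes in the tumor mural-like, Thbs4-high and SAT mural-like cells of each library. Skeletal muscle markers had UMIs for at most 3 of 8 genes in any of them.

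Some barcodes carried transcripts of more than 1 cell type. In SAT control, 126 of 172 cells with at least 5 UMIs of the 10 genes (73.3%) also had at least 2 UMIs of endothelial markers. The figure was 37 of 66 (56.1%) in SAT D-CAN, 15 of 138 (10.9%) in tumor control and 18 of 92 (19.6%) in tumor D-CAN. Without Esam, an adhesion molecule on the endothelial list, these numbers were 120 (69.8%) in SAT control, 24 (36.4%) in SAT D-CAN, 7 (5.07%) in tumor control and 14 (15.2%) in tumor D-CAN. A SAT cluster with 10 endothelial and 8 mural markers, called the mixed vascular cluster here (292 and 37 cells), was left out of the mural-like class. It held 99 of the 126 barcodes of SAT control and 9 of the 37 of SAT D-CAN, where 14 lay in the mural-like and 14 in the endothelial-like clusters. The mixed vascular cluster held 50.8% of the UMIs of the 10 genes in SAT control, against 32.9% in the mural-like cluster. In SAT D-CAN it held 9.25% and the mural-like cluster 83.2%. Within the SAT mural-like cluster 4 of 19 and 14 of 36 cells had at least 2 endothelial UMIs. Over all cells of this cluster, 13 of 15 and 58 of 84 endothelial UMIs were from Esam. Without Esam 0 and 2 cells had at least 2 endothelial UMIs. SAT leukocyte-like cells passed this limit in 4.07% and 4.05% of cells with Esam counted, and in 3.79% and 3.86% without it.

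The 10 genes formed a gradient that differed by gene. Acta2, Tpm2 and Myl9 differed by less than 1.5-fold between Thbs4-high and tumor mural-like cells in both treatments and Tagln was higher in Thbs4-high cells, whereas Rgs5, Des, Notch3, Mylk and Myh11 were lower in Thbs4-high cells. SAT mural-like cells were the highest of the 3 classes in both treatments for all genes except Tagln in control and Cnn1, whose counts were too few to place. Levels are counts per 1000000 UMIs (CPM), taken over all cells of a class in a library. A gene was called past the fold when 2 classes differed at least 2-fold the same way in control and in D-CAN, and it was considered only with at least 20 UMIs over the compared sums in each treatment. In each of the class comparisons 9 of the 10 genes met this minimum, and Cnn1 did not. A gene with few UMIs in 1 class could meet it only through the other class, which largely fixed the direction of its call.

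**Figure D1:**
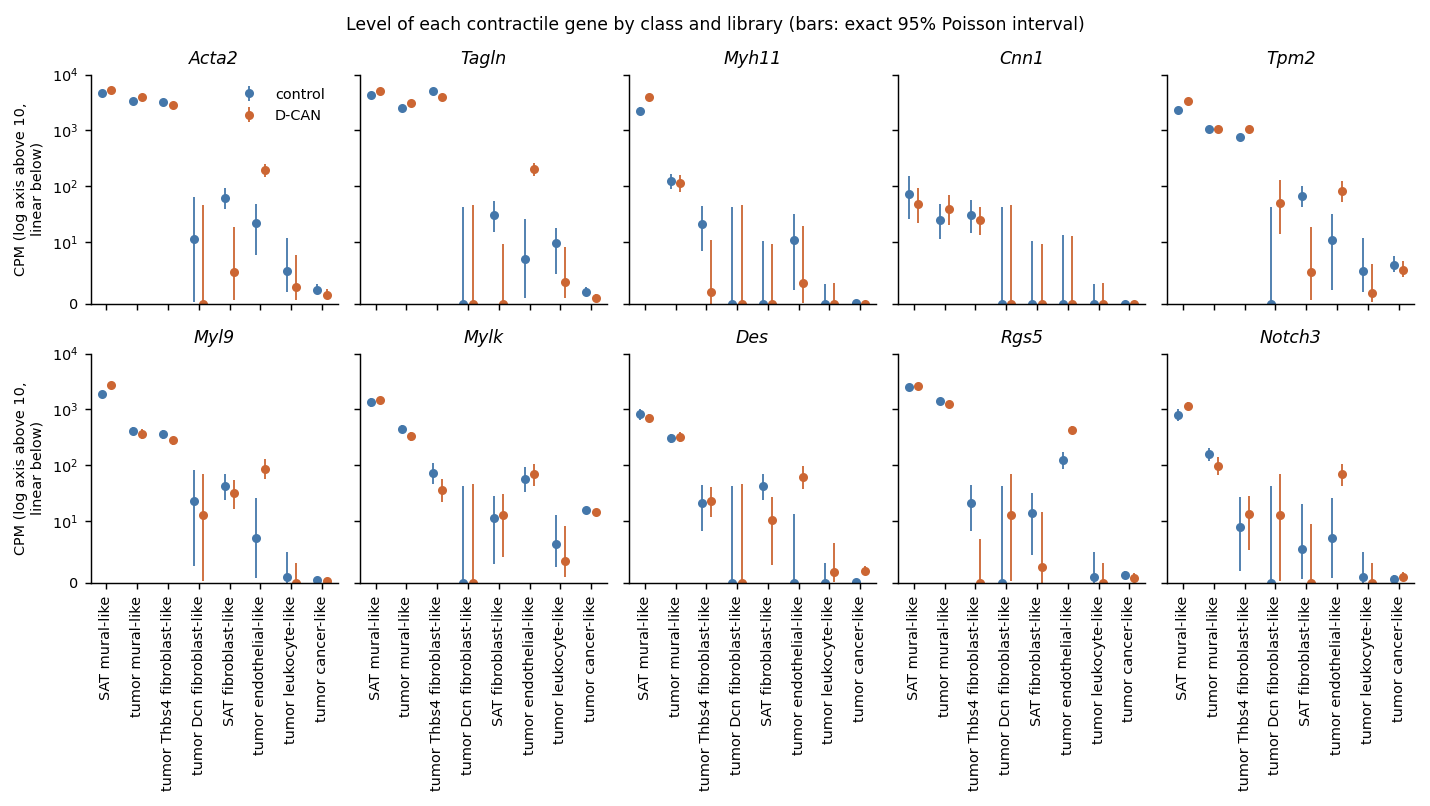
Level of each of the 10 genes (CPM, log axis above 10 and linear below) by class, with the control library in blue and the D-CAN library in orange. Bars are exact 95% Poisson intervals. Each gene is highest in SAT mural-like, tumor mural-like or Thbs4-high cells, and Myh11 stands at 2254 and 3926 CPM in SAT mural-like cells against 122 and 111 in tumor mural-like cells.

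Actin filament genes were abundant in both tumor classes. Acta2 was measured at 3301 CPM (3116 to 3494) in tumor mural-like cells of control and 3892 CPM (3674 to 4120) in those of D-CAN, and at 3212 CPM (3022 to 3410) and 2868 CPM (2724 to 3017) in Thbs4-high cells. The intervals of both classes overlapped in control and were apart in D-CAN, where Acta2 was 1.36-fold lower in Thbs4-high cells. Tagln was the 1 member with more transcripts in Thbs4-high cells in both treatments, at 4997 and 3924 CPM against 2496 and 3025 CPM, which is 2.0-fold higher in control and 1.30-fold higher in D-CAN. Tpm2 stood at 1036 and 1047 CPM in mural-like cells and at 772 and 1073 CPM in Thbs4-high cells, lower in control and overlapping in D-CAN. Cnn1 had 9 and 12 UMIs in mural-like cells and 10 and 13 UMIs in Thbs4-high cells, too few to order the classes, and 1 cell held 77.8% and 83.3% of the mural-like Cnn1 UMIs.

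Of the myosin genes, the regulatory light chain and the kinase diverged. Myl9 was at 416 CPM (352 to 489) and 363 CPM (299 to 438) in tumor mural-like cells, and at 358 CPM (296 to 428) and 277 CPM (234 to 326) in Thbs4-high cells. These intervals overlapped in both treatments. Mylk was 444 and 327 CPM in mural-like cells against 72.1 and 36.4 CPM in Thbs4-high cells, 6.16-fold and 9.0-fold lower in the latter. Myh11, the heavy chain, was 122 CPM (88.8 to 164) and 111 CPM (77.1 to 156) in mural-like cells. In Thbs4-high cells it had 7 UMIs (21.0 CPM, 8.46 to 43.3) in control and 1 UMI (1.91 CPM, 0.0484 to 10.7) in D-CAN. A single cell held 43.2% of the mural-like Myh11 UMIs in control and 70.6% in D-CAN, and without it the level was 70.1 and 33.3 CPM.

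Desmin and both mural regulators were also lower in Thbs4-high cells. Des was 305 and 321 CPM in mural-like cells and 21.0 and 23.0 CPM in Thbs4-high cells, 14.5-fold and 14.0-fold lower. Rgs5 reached 1402 CPM (1282 to 1530) and 1227 CPM (1106 to 1358) in mural-like cells. In Thbs4-high cells it had 7 UMIs in control, 85.7% of them in 1 cell and 66.7-fold lower by CPM, and 0 UMIs in D-CAN, at least 214-fold lower when 3 counts are taken as the limit that a count of 0 allows. Notch3 was 155 and 98.2 CPM in mural-like cells, against 9.01 CPM (1.86 to 26.3, 3 UMIs) and 13.4 CPM (5.38 to 27.6) in Thbs4-high cells.

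In all, 5 of 9 genes (Myh11, Mylk, Des, Rgs5 and Notch3) were past the fold toward lower levels in Thbs4-high cells, against 3.68% of the 4513 genes compared, and 0 of 9 were past it toward higher levels, against 5.65%. Myh11, Des, Rgs5 and Notch3 had at most 12 UMIs in Thbs4-high cells of either library. They met the minimum through the mural-like sums, so this count is a description. The median log2 ratio of the 9 genes was -2.45 in control and -2.80 in D-CAN, and that of all genes was -0.05 and -0.04. Myh11 had under 20 UMIs over the sums once the cell with most Myh11 UMIs was left out, which left 4 genes past the fold.

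Dcn-high fibroblast-like cells were almost without these transcripts. All 10 genes together had 3 UMIs in the 22 control cells and 7 UMIs in the 13 D-CAN cells, of which 4 were from Tpm2. Tagln, Myh11, Cnn1, Mylk and Des had 0 UMIs in both libraries, which allows up to 34.2 CPM in control and 38.0 CPM in D-CAN. Tagln was thus at least 73.1-fold and 79.7-fold lower than in mural-like cells, and Mylk at least 13.0-fold and 8.62-fold lower. All 9 genes with enough UMIs were past the fold toward lower levels, against 8.87% of 2728 genes, and 0 were higher, against 5.83%. These 9 genes met the minimum of UMIs through their mural-like sums. The direction of the calls was thus largely fixed, and the count is a description. Myh11 was no longer among the lower genes once each gene's highest cell was left out. Dcn, the proteoglycan decorin, was at 9735 and 7820 CPM in these cells, 1502 and 1280 CPM in Thbs4-high cells and 119 and 75.3 CPM in tumor mural-like cells.

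SAT mural-like cells, taken without the mixed vascular cluster, had higher levels of these genes than tumor mural-like cells, and most so for Myh11. Myh11 was 2254 CPM (1946 to 2598) in SAT control and 3926 CPM (3646 to 4222) in SAT D-CAN, 18.5-fold and 35.3-fold above tumor mural-like cells. Notch3 followed with 791 and 1165 CPM, 5.09-fold and 11.9-fold higher. The genes of the regulatory light chain and of its kinase were higher as well, Myl9 at 1853 and 2772 CPM (4.45-fold and 7.63-fold) and Mylk at 1357 and 1505 CPM (3.06-fold and 4.60-fold). None of the intervals of these 4 genes overlapped between the tissues.

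Actin, desmin and Rgs5 differed less. Tpm2 was 2290 and 3322 CPM in SAT mural-like cells (2.21-fold and 3.17-fold higher) and Des was 814 and 706 CPM (2.67-fold and 2.20-fold higher). Rgs5 was 2478 and 2594 CPM, 1.77-fold and 2.11-fold higher. Tagln was 4320 and 5005 CPM (1.73-fold and 1.65-fold) and Acta2 was 4756 and 5350 CPM (1.44-fold and 1.37-fold), so neither reached the 2-fold limit. Cnn1 had 6 and 9 UMIs.

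Thus 6 of 9 genes (Myh11, Tpm2, Myl9, Mylk, Des and Notch3) were past the fold toward higher levels in SAT, against 9.21% of 3127 genes, and 0 were lower, against 11.2%. The median log2 ratio of the 9 genes was 1.42 in control and 1.66 in D-CAN, and that of all genes was -0.07 and -0.08. This comparison uses the same tumor mural-like sums as that with Thbs4-high cells, and tissue, library and depth cannot be told apart in it. The count was 5 genes (without Tpm2) with cells of at least 500 genes and 4 (without Tpm2 and Des) with 20 principal components. It was 3 (Myh11, Myl9 and Notch3) when contractile genes were allowed among the variable genes, where the SAT mural-like cluster had 169 and 46 cells. The share over all genes was not computed under these alternatives. In the mixed vascular cluster, Myh11 was 562 and 139 CPM, Acta2 778 and 168 CPM, and Rgs5 1127 and 738 CPM, each below SAT mural-like cells. That cluster, left out of the comparison, held 64.0% of the Rgs5 UMIs of SAT control, against 21.4% in the mural-like cluster. In SAT D-CAN it held 27.1% and the mural-like cluster 63.0%. The comparison thus also depends on which SAT cells were taken as mural-like.

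Within SAT, fibroblast-like cells (119 and 64 cells) lay far below mural-like cells for each of the 9 genes with enough UMIs. Against the SAT mural-like class 9 of 9 were past the fold toward lower levels (10.0% of 3136 genes) and 0 toward higher levels (14.5%). The 10 genes together had 98 and 26 UMIs in SAT fibroblast-like cells, so most met the minimum through the mural-like sums. The direction was thus largely fixed, and this count is a description. Acta2 was 61.0 and 5.19 CPM there, Des 41.6 and 10.4 CPM, and Myh11 had 0 UMIs in both libraries, at least 271-fold and 504-fold below mural-like cells. The SAT fibroblast-like class was thus nearer to the Dcn-high than to the Thbs4-high cells of the tumor in its Acta2 level in both treatments.

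**Figure D2:**
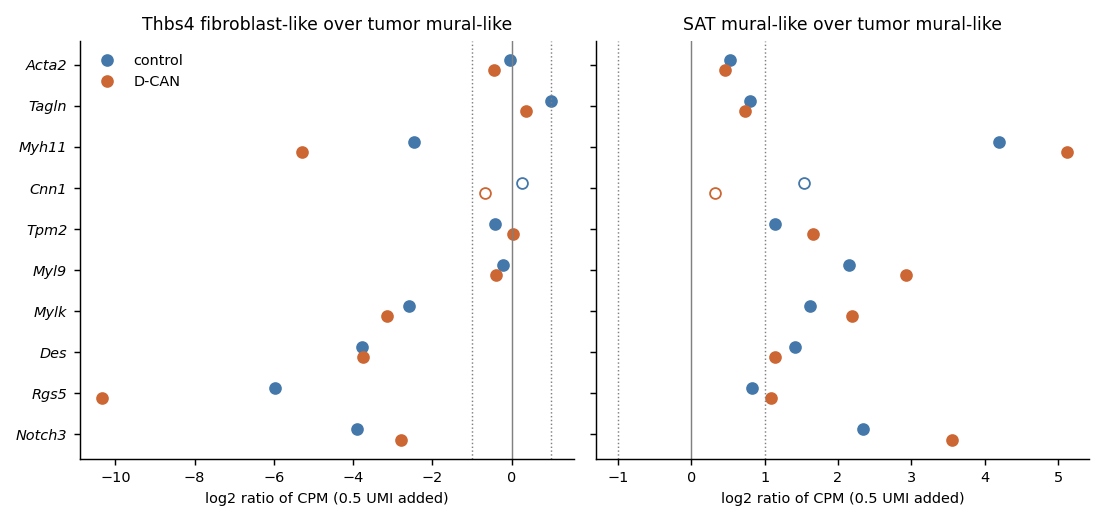
The log2 ratio of CPM (0.5 UMI added to each sum) for each gene, Thbs4-high fibroblast-like over tumor mural-like cells on the left and SAT mural-like over tumor mural-like cells on the right. Blue is control and orange is D-CAN, open circles mark genes under 20 UMIs, dotted lines mark 2-fold, and the Rgs5 point of D-CAN on the left rests on 0 UMIs and so depends on the UMI added. Rgs5, Des, Notch3, Mylk and Myh11 lie left of -1 in the left panel, and Myh11 lies furthest right in the right panel, at 4.19 and 5.12.

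Other classes gave the background. In tumor leukocyte-like cells, which should lack these transcripts, the highest level of any of the 10 genes was 9.76 CPM (Tagln, control), and in SAT leukocyte-like cells it was 3.1 CPM. Cancer-like cells were at or under 6.29 CPM for 9 genes. Mylk was the exception at 15.7 and 14.3 CPM, and cancer-like cells held 52.1% and 54.6% of all tumor Mylk UMIs. Cancer-like cells were 51.7% and 47.8% of the kept tumor cells. They had 14933988 of the 17996284 UMIs of tumor control and 12823126 of the 15672787 UMIs of tumor D-CAN. Tumor endothelial-like cells had 122 and 430 CPM of Rgs5 and 21.6 and 192 CPM of Acta2. In this class 2 cells of control and 8 of D-CAN had at least 5 UMIs of the 10 genes. All 10 of these cells also had at least 2 endothelial UMIs, as did 98.0% and 97.0% of all cells of the class. The class was named from these endothelial markers, so this does not set the 10 cells apart. The level of Rgs5 in Thbs4-high cells (21.0 and 0 CPM) was below that in tumor endothelial-like cells.

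Over the whole library the 10 genes were shared mainly between the mural-like and Thbs4-high classes of the tumor. The mural-like cells held 48.4% of the tumor control UMIs and 38.8% of the tumor D-CAN UMIs of these genes, and Thbs4-high cells held 43.8% and 52.4%. For Tagln the Thbs4-high share was larger, at 63.7% and 67.2%, and for Rgs5 the mural-like share was 88.1% and 73.2%. These shares follow the number and depth of cells in each class as well as the level per cell.

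Co-expression was read cell by cell at a common depth of 1000 UMIs, drawn at random from those of the cell, because detection depends on depth. This left out 26 of 109 and 4 of 51 tumor mural-like cells, 0 and 1 Thbs4-high cells, and 0 and 1 SAT mural-like cells. The median cell had UMIs of 7 of the 10 genes in SAT mural-like cells, 3 in tumor mural-like cells and 2 in Thbs4-high cells, in control and in D-CAN alike. In Dcn-high cells the median was 0.

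Cells with 5 or more of the 10 genes made up 84.2% (60.4 to 96.6, 16 of 19 cells) and 88.6% (73.3 to 96.8, 31 of 35) of SAT mural-like cells. In tumor mural-like cells the shares were 22.9% (14.4 to 33.4, 19 of 83) and 21.3% (10.7 to 35.7, 10 of 47). In Thbs4-high cells they were 3.23% (0.393 to 11.2, 2 of 62) and 1.92% (0.0487 to 10.3, 1 of 52). The order of the 3 classes was the same in both treatments. Without thinning the shares were 100% and 100% in SAT mural-like, 50.5% and 66.7% in tumor mural-like, and 17.7% and 22.6% in Thbs4-high cells. No leukocyte-like or cancer-like cell had 5 of the genes, thinned or not.

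**Figure D3:**
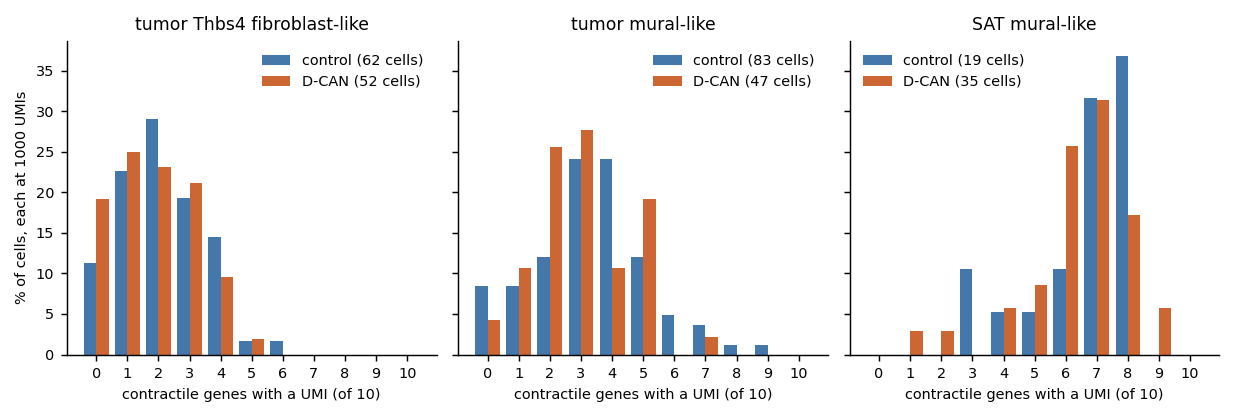
Share of cells (%, each thinned to 1000 UMIs) by the number of the 10 contractile genes with a UMI, for Thbs4-high fibroblast-like, tumor mural-like and SAT mural-like cells, control in blue and D-CAN in orange. The median moves from 2 to 3 to 7 genes from left to right, in both treatments.

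Acta2 and Tagln were found together in both tumor classes, at shares whose intervals overlapped. At 1000 UMIs, 55.4% and 55.3% of tumor mural-like cells had both, as did 54.8% and 44.2% of Thbs4-high cells and 78.9% and 77.1% of SAT mural-like cells. Acta2 with Rgs5 was seen in 32.5% and 19.1% of tumor mural-like cells and in 0 of 62 and 0 of 52 Thbs4-high cells. Acta2 with Myh11 was seen in 3.61% and 2.13% of tumor mural-like cells, in 0 of 62 and 0 of 52 Thbs4-high cells, and in 68.4% and 71.4% of SAT mural-like cells. In the tumor this pair rested on 3 cells and 1 cell, and its intervals overlapped between mural-like and Thbs4-high cells. At 1000 UMIs no Thbs4-high cell had Myh11, and 1 of 62 and 0 of 52 had Rgs5. The counts of 0 in Thbs4-high cells therefore say little about pairing.

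Tumor mural-like cells with Rgs5 had a lower share with Tagln than those without it in both libraries, with overlapping intervals. In control, Tagln was detected in 53.7% of 41 cells with Rgs5 and in 76.2% of 42 cells without it, and in D-CAN in 47.4% of 19 cells and 75% of 28 cells. For Acta2 the shares were 65.9% and 64.3% in control and 47.4% and 85.7% in D-CAN. A lower share in cells with Rgs5 was thus seen in D-CAN alone, and the intervals overlapped in both libraries. Notch3 leaned the other way, at 17.1% of cells with Rgs5 and 4.76% of cells without it in control, and 10.5% and 3.57% in D-CAN, with overlapping intervals.

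In SAT mural-like cells of control, Myh11 was detected in 4 of 8 cells with Rgs5 and 9 of 11 cells without it, and in D-CAN in 13 of 19 and 15 of 16 cells. Mylk was found in 5 of 8 and 10 of 11 cells of control and in 7 of 19 and 12 of 16 cells of D-CAN. Across cells at 1000 UMIs, Spearman's correlation coefficient between Acta2 and Rgs5 was -0.60 (19 cells) and -0.53 (35 cells) in SAT mural-like cells. It was -0.003 (83 cells) and -0.43 (47 cells) in tumor mural-like cells. Acta2 and Tagln had a coefficient of 0.67 and 0.62 in tumor mural-like, 0.62 and 0.73 in Thbs4-high, and 0.76 and 0.38 in SAT mural-like cells. These coefficients describe cells of 1 library each, which share its preparation, and at a fixed total of UMIs a cell with more of one transcript has fewer of the rest.

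D-CAN and control differed by less than 2-fold for each of the 10 genes that had enough UMIs. In tumor mural-like cells 0 of 10 genes were past the fold in either direction, where 3.59% of 4601 genes were lower and 2.85% higher. Acta2 was 0.24 (0.12 to 0.35) and Tagln 0.28 (0.14 to 0.41) higher on the log2 scale in D-CAN, and Mylk had a log2 ratio of -0.44 (-0.82 to -0.07). The intervals of the other 7 genes included 0. The median log2 ratio was -0.06 over the 10 genes and -0.01 over all genes. Myh11 depended on a few cells. Its log2 ratio of -0.13 became -1.04 without the cell with most Myh11 UMIs in each library, and 1.03 without the 13 and 8 cells that had 2 or more endothelial UMIs, of which 5 and 4 still had 2 when Esam was not counted.

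In Thbs4-high cells, where 6 of the 10 genes had enough UMIs, 0 were past the fold, against 2.43% of 5218 genes lower and 2.89% higher. Tagln had a log2 ratio of -0.35 (-0.44 to -0.25), Mylk of -0.98 (-1.94 to -0.06) from 24 and 19 UMIs, and Tpm2 of 0.47 (0.26 to 0.69). Acta2 was at -0.16 (-0.28 to -0.05) and Myl9 at -0.37 (-0.73 to -0.004), and the interval of Cnn1 included 0. The median was -0.32 over the 6 genes and -0.01 over all genes.

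In SAT mural-like cells 0 of 9 genes were past the fold, against 3.64% of 2228 genes lower and 9.29% higher. Myh11 was highest at 0.80 (0.57 to 1.04), followed by Myl9 at 0.58 (0.32 to 0.85), Notch3 at 0.55 (0.16 to 0.98) and Tpm2 at 0.53 (0.30 to 0.78). Rgs5 was at 0.06 (-0.17 to 0.31). The median was 0.21 over the 9 genes and 0.08 over all genes. The control value came from 19 cells, and the library also had 292 mixed vascular barcodes where D-CAN had 37. Treatment and library cannot be told apart in any of these ratios.

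**Figure D4:**
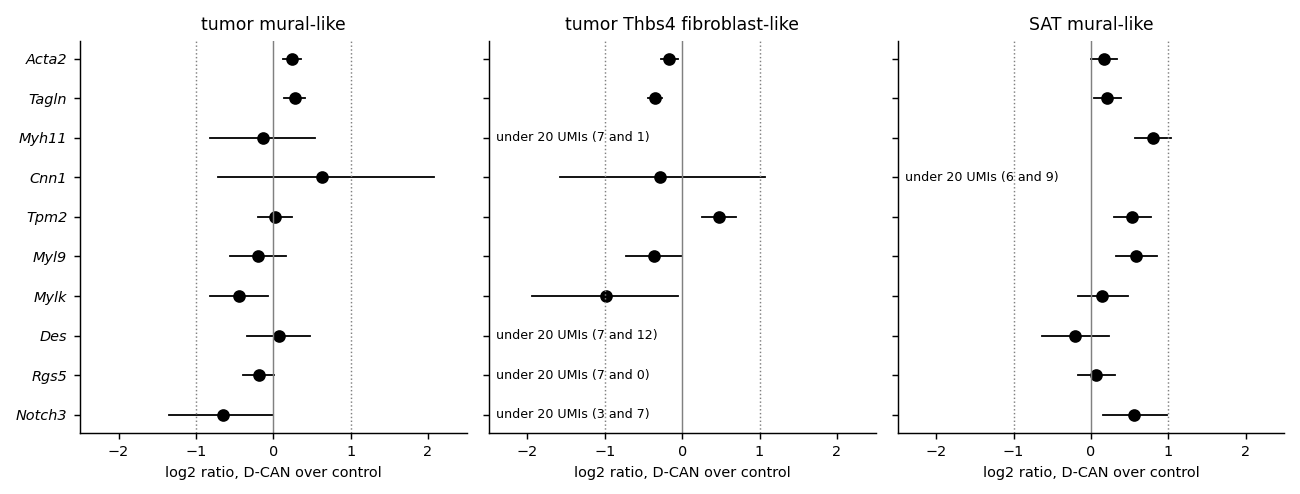
The log2 ratio of CPM, D-CAN over control, for each gene in tumor mural-like, Thbs4-high fibroblast-like and SAT mural-like cells, with 95% intervals from the counts of both libraries and dotted lines at 2-fold. Genes under 20 UMIs are written out with their UMIs in control and D-CAN. No point lies beyond a dotted line, and Mylk in Thbs4-high cells (-0.98) and Myh11 in SAT mural-like cells (0.80) lie nearest.

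Other contractile genes were called by the same rule. Of 25 such genes, 19 had enough UMIs in the comparison of Thbs4-high with tumor mural-like cells, and 6 were lower and 0 higher, against 3.68% and 5.65% of all genes compared. Ppp1r14a, an inhibitor of myosin phosphatase, had 0 UMIs in Thbs4-high cells against 155 and 154 CPM in mural-like cells, at least 17.2-fold and 26.8-fold lower. Mustn1 was 3.0 and 0 CPM against 77.7 and 105 CPM, and Kcnmb1, a subunit of a calcium-activated potassium channel of smooth muscle, was 6.01 and 1.91 CPM against 55.5 and 68.7 CPM. In Dcn-high cells 13 of 18 were lower than in mural-like cells (8.87% of all genes), among them Actg2, the gamma actin of enteric smooth muscle, at 0 CPM in Dcn-high cells against 303 and 350 CPM.

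SAT mural-like cells were higher than tumor mural-like cells for 9 of 20 of these genes, against 9.21% of all genes compared. Ppp1r12b, a myosin phosphatase subunit, was 236 and 496 CPM against 30.5 and 29.5 CPM. Lmod1, the smooth muscle leiomodin that nucleates actin filaments, was 460 and 475 CPM against 61.1 and 68.7 CPM. Ppp1r12a, the myosin-targeting subunit of the phosphatase, was 885 and 1122 CPM against 125 and 141 CPM. Actg2 alone of the 20 was lower (11.2% of all genes), at 0 and 16.2 CPM in SAT. In SAT fibroblast-like cells 14 of 16 were lower than in SAT mural-like cells (10.0% of all genes) and 0 were higher (14.5%).

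Of 14 Notch pathway genes, 4 had enough UMIs in SAT and tumor mural-like cells and 3 were higher in SAT, against 9.21% of all genes. These were Nrarp, a target and inhibitor of Notch signaling (189 and 270 CPM against 25 and 29.5 CPM), the ligand gene Jag1 (153 and 216 CPM against 41.6 and 26.2 CPM) and the target gene Hes1 (720 and 1035 CPM against 247 and 255 CPM). In Thbs4-high against mural-like cells 0 of 2 were past the fold, as in Dcn-high against mural-like cells. Between SAT fibroblast-like and SAT mural-like cells 3 had enough UMIs. Hes1 and Jag1 were lower in fibroblast-like cells (10.0% of all genes). Rbpj, the DNA-binding partner of Notch, was higher (14.5% of all genes), at 203 and 132 CPM against 47.2 and 43.1 CPM. In SAT mural-like cells 1 UMI was 11.8 and 5.39 CPM, so Rbpj rested on few UMIs there.

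Of 6 other RGS genes, Rgs4 and Rgs16 were lower in Thbs4-high than in mural-like cells, out of 4 with enough UMIs (3.68% of all genes). Rgs4 was 48.1 and 40.2 CPM against 286 and 327 CPM, and it was 661 and 1030 CPM in SAT mural-like cells. It was lower in Dcn-high and in SAT fibroblast-like cells too. Vascular tone genes were lower in Thbs4-high cells for 4 of 10, against the same 3.68%. Abcc9 and Gucy1a1 had 0 UMIs there in both libraries, and Kcnj8, the potassium channel that pairs with Abcc9, was 3.0 and 3.83 CPM against 186 and 131 CPM. In SAT mural-like cells 6 of 12 were higher than in the tumor (9.21% of all genes), led by Ednrb, an endothelin receptor (378 and 119 CPM against 52.8 and 42.6 CPM), and by Gucy1a1 and Gucy1b1, the subunits of the nitric oxide receptor. Vascular tone genes were lower for 5 of 9 in Dcn-high cells (8.87% of all genes) and for 8 of 11 in SAT fibroblast-like cells (10.0%). Rgs4, Kcnj8, Abcc9, Gucy1a1 and Gucy1b1 were among the markers that named the mural-like clusters, so their levels there are a description. Of 5 genes on a list for serum response factor and its regulation, only Klf4 had enough UMIs for a call. Klf4 was higher in Dcn-high than in tumor mural-like cells (194 and 380 CPM against 49.98 and 32.7 CPM), against 5.83% of all genes. It was also higher in SAT fibroblast-like than in SAT mural-like cells, against 14.5%.

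The genes with the most similar pattern were sought by Pearson's r between log2(CPM + 10) of a gene and the mean of the 10 genes over 24 profiles, each a class or cluster of a library with at least 20 cells. Rgs4 had the highest r (0.97), followed by Nexn, which encodes an actin-binding protein (0.97), Arhgef17 (0.96), the endothelin receptor gene Ednra (0.95), Atp1b2 (0.94), the gap junction gene Gjc1 (0.92), Gucy1b1 (0.92), Dmd, which encodes dystrophin (0.91), Tpm1 (0.91) and Hspb2 (0.90). Each of the 10 genes was also set against the mean of the other 9. Myl9 was closest to it (0.95) and Cnn1 furthest (0.79), with Rgs5 next at 0.81. Profiles of the same library share its depth and free RNA, so these coefficients are a description. The limit of 20 cells left out SAT mural-like cells of control (19 cells) and Dcn-high cells of D-CAN (13 cells). SAT mural-like cells thus entered from the D-CAN library alone.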

How the data were processed

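Per the labels, cells passed dead-cell and red-cell removal and were captured with 10x 3′ reagents. The submitters' processing notes name Cell Ranger 3.1.0, STAR 2.6 and mm10. The header of the SAT D-CAN counts names Cell Ranger 3.0.2, and those of the other libraries name 3.1.0. The authors deposited UMI counts per gene and cell without normalization. All else was computed here. Cells with at least 200 genes were kept. Each tissue was clustered in Seurat 5.3.0 under R 4.3.3 with 2000 variable genes, 10 components and resolution 0.8, after removal of the 10 genes and 25 other contractile genes from the variable genes, which left 1977 in tumor and 1972 in SAT. Clusters were named from marker lists, with thresholds set after the clusters were seen (a marker in 10% of cells and at 10% of its highest cluster, at least 3 markers, and Thbs4 or Dcn above 1000 CPM for the tumor fibroblast-like classes). The genes and lists were chosen with earlier results of these data known.

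Scrublet in scanpy 1.11.5 marked 18 of 178 expected doublets, too few to have worked, and none were removed. Counts were summed per class and library (Python 3.11.15, numpy 2.4.6, scipy 1.17.1, pandas 2.3.3), given as CPM with exact Poisson intervals, and compared as log2 ratios with 0.5 UMI added. Shares have exact Clopper-Pearson intervals. With 1 library per group no test was run. The class ratio with its fold rule and the thinning were tested on simulated counts, drawn without differences between cells. Clustering and naming were not tested in this way. Named genes were the 10, the 3 highest and 3 lowest past the fold in each list and comparison, from which some are left out, and the 10 most similar in pattern. Figures were drawn in matplotlib 3.10.9.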

Additional observations from a re-analysis of the deposited data

How the results depend on the processing

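No paired analysis was possible because each group has 1 library. The share of all genes past the fold was not computed under any of the alternatives below, so their counts of called genes have no background. With all variable genes used, 3 genes were past the fold in SAT over tumor mural-like cells. In SAT mural-like cells 3 genes (Myh11, Tpm2 and Myl9) were higher in D-CAN. The share of SAT control mural-like cells with 5 or more genes was 52.4%. With 20 components that share was also 52.4%, 4 genes were past the fold in SAT over tumor mural-like cells, and 1 gene, Myh11, was higher in D-CAN in SAT mural-like cells. At a fold of 1.5, the D-CAN ratio called 1 gene lower (Notch3) and 1 higher (Cnn1) in tumor mural-like cells, 1 lower (Mylk) in Thbs4-high cells and 1 higher (Myh11) in SAT mural-like cells. With no minimum of UMIs it called 2 lower in Thbs4-high cells. Alternatives chosen after the data were seen moved Myh11 in tumor mural-like cells, with 1 gene higher (log2 ratio 1.03, reversed in sign) without cells that hold 2 endothelial UMIs and 1 lower without each gene's highest cell. The cause was not tested. A gate on markers, applied to all kept cells, took 6 and 3 tumor cells of control and D-CAN and gave no value there. It required 2 mural-marker UMIs and fewer than 2 on each of the other main lists. The 3 D-CAN cells came from the cancer-like class (711 cells before and 708 after), and the unnamed class of control went from 398 to 397. Of the tumor mural-like cluster, 94.5% and 96.1% of cells had 2 or more fibroblast-marker UMIs. Resolution 0.4 gave no SAT mural-like and no Dcn-high class, and 20 components no Dcn-high class. Resolution 1.2 gave a Dcn-high class of 55 and 22 cells with 1271 and 546 CPM over the 10 genes. The main setting gave 34.2 and 88.6 CPM. The tumor mural-like class had 77 and 42 cells at resolution 1.2, against 109 and 51 in the main setting. The genes past the fold toward lower levels than in tumor mural-like cells were the same at both resolutions.

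Shares of cells with 5 or more genes follow depth by construction. In control and D-CAN they were 8.26% and 1.96% in tumor mural-like and 0% and 0% in Thbs4-high cells at 500 UMIs, and 57.8% and 50% in tumor mural-like cells at 2000 UMIs. Without thinning they were 50.5% and 66.7%, 17.7% and 22.6%, and 100% and 100% in tumor mural-like, Thbs4-high and SAT mural-like cells. With 2 UMIs required they were 6.02% and 4.26%, 0% and 0%, and 57.9% and 60.0%. Of the single-gene ratios between classes, 984 kept their side of the fold, 16 no longer reached it and 4 newly did. Of those between treatments 359 kept their side of the fold, 9 newly reached it and 1 reversed in sign and was past it. A change of sign inside the fold was counted as kept.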

Other observations

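Transgelin and actin transcripts were in another proportion in SAT endothelial-like cells than in mural-like cells. In SAT endothelial-like cells there were 5.54 Tagln UMIs per Acta2 UMI in control (316 and 57 UMIs) and 8.11 in D-CAN (146 and 18 UMIs). In SAT mural-like cells the same ratio was 0.908 and 0.935. Tagln was 351 and 180 CPM in SAT endothelial-like cells and 7.19 and 203 CPM in tumor endothelial-like cells.

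Desmin was found in unnamed SAT clusters at 105 and 140 CPM, where Acta2 was 41.9 and 8.77 CPM. Both values were above the SAT leukocyte-like level of Des, 1.11 and 0.18 CPM. The source of these transcripts was not tested.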
